A study of Mus musculus with 4 samples.

Results

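Peroxisome biogenesis and peroxisomal lipid oxidation were examined in brown adipose tissue (BAT) through a list of 36 gene symbols, whose rule goes by gene name and uses no measured value, although the list was drawn up with earlier results of these data known. Peci, one of them, has no row of its own and is an older symbol of Eci2, also listed, so the list amounts to 35 genes, each with 1 row among the 55387 rows of each library. Of these, 34 had a mean above 1 FPKM in either genotype and entered the test, which covered 12877 genes. The one that did not is Acox2. Of the 35 genes, 13 encode peroxins, the proteins that build the organelle, and 22 encode enzymes and transporters.

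The libraries come from 4 male mice aged 15 weeks on a C57BL/6 background, 2 Sox4f/f mice and 2 Sox4-MKO littermates, with 1 library a mouse. Sox4f/f mice, the controls, carry floxed Sox4, and the labels call this genotype WT. In Sox4-MKO mice a Cre recombinase driven by Myf5 deletes the gene for the transcription factor SOX4 in the lineage that gives brown adipocytes and skeletal muscle. The tissue was sequenced whole. The comparison asks which peroxisomal transcripts differ in level between BAT of the 2 genotypes.

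Peroxisomes are small organelles bounded by a single membrane that shorten very-long-chain and branched fatty acids, destroy the hydrogen peroxide made on the way, and start the synthesis of ether lipids. Their enzymes are made in the cytosol and brought in by the receptors PEX5 and PEX7, which dock at the membrane, release their cargo and are pulled back out by an ATPase complex. Brown fat is rich in peroxisomes, which multiply in the cold, and many of the genes are known targets of PPARα and its coactivator PGC1α.

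Sox4 itself had 1.98 and 1.06 FPKM in Sox4f/f and 0.98 and 3.06 FPKM under the Sox4-MKO label. The log2 change, the difference of the group means of log2(FPKM + 1) with Sox4f/f subtracted, was 0.20 with a standard error of 0.43 (adjusted p = 0.843, limma), and turned to -0.32 when Sox4-MKO mouse 2 was dropped and to 0.71 when mouse 1 was. The transcript of the deleted gene was thus not measurably reduced, and directions are given by label. Its mean of 1.77 FPKM was low, at percentile 13.3 of the tested genes, where the added 1 understates a change. The paper reports much less SOX4 protein in BAT of younger Sox4-MKO mice. Depth was estimated at 12100000 to 16300000 fragments a library. FPKM, the fragments of a gene divided by its transcript length and by the depth of the library, summed to 578011 and 544564 in the Sox4f/f libraries and to 495145 and 472062 in the others. The 8 brown adipocyte markers summed to 7618 and 7451 FPKM in Sox4f/f and to 3706 and 4474 FPKM under the Sox4-MKO label, so the labelled tissue was recognisable in every library. The 10 skeletal muscle markers summed to 194 and 716 FPKM against 13886 and 2498 FPKM, with Sox4-MKO mouse 1 far above the others. None was listed at 0, and 8 of 10 were called higher (unadjusted p under 0.05, limma), against 7.95% of all tested genes. The 8 macrophage markers summed to 105 and 142 FPKM against 225 and 200 FPKM, with none listed at 0. Of these 8, 6 were called higher, against the same 7.95%. The part of muscle and macrophage RNA in the results on peroxisomal genes was not tested, and in whole tissue fewer cells of a type and less RNA per cell cannot be told apart.

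On the deposited scale most peroxisomal genes lay somewhat lower under the Sox4-MKO label, and a few stood well apart. The import receptor Pex5, the receptor-recycling ATPase Pex6 and the phytanic acid enzyme Phyh were lower, while the acyl-CoA transporter Abcd2 and the thiolase Acaa1b were higher. Of the 34 genes tested, 8 (23.5%) were called lower and 2 (5.88%) higher at an unadjusted p under 0.05, where 8.28% and 7.95% of all 12877 tested genes were. After Benjamini-Hochberg adjustment limma called 0 of the 34 and 0% of all tested genes, and the smallest adjusted p was 0.191. Every call named here therefore rests on an unadjusted p, and an exact permutation test of a single gene, two-sided, gives no p below 0.33 in this design of 2 mice a genotype. The median log2 change was -0.22 over the 34 genes and -0.05 over all tested genes, with 24 of the 34 (70.6%) below 0 against 56.0% of all. Both libraries labelled Sox4-MKO lay below both Sox4f/f libraries at 20 of the 34 genes (58.8%, against 29.6% of all tested genes) and above them at 5 (14.7%, against 21.7%).

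Lower calls still outnumbered higher ones among the 34 in the 3 planned rescalings. With a common median 11 were called lower and 2 higher, where 1244 and 1041 of all 12877 tested genes were. With quantile normalization it was 8 and 2, where 1145 and 947 of all were. Rescaled without mitochondrial genes and Ucp1, it was 7 and 3, where 746 and 1322 of all were. The balance did change on a common FPKM sum, an alternative chosen after the sums had been seen. There 3 of the 34 (8.82%) were called lower and 6 higher, where 2.56% and 14.6% of all tested genes were. The calls in the higher direction thus lay near the share over all genes. The median over the 34 moved to -0.01 and that over all tested genes to 0.13, so the 34 still lay lower in the median. Pex5, Pex6 and Phyh stayed called lower and Abcd2 and Acaa1b higher in each of the 17 alternative fits (rescalings, filters, pseudocounts, a replicate block and the loss of any one library), where 1.09% of all tested genes were called lower and 1.51% higher in every fit that tested them. The other 5 calls were each lost in some of them.

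**Figure D1:**
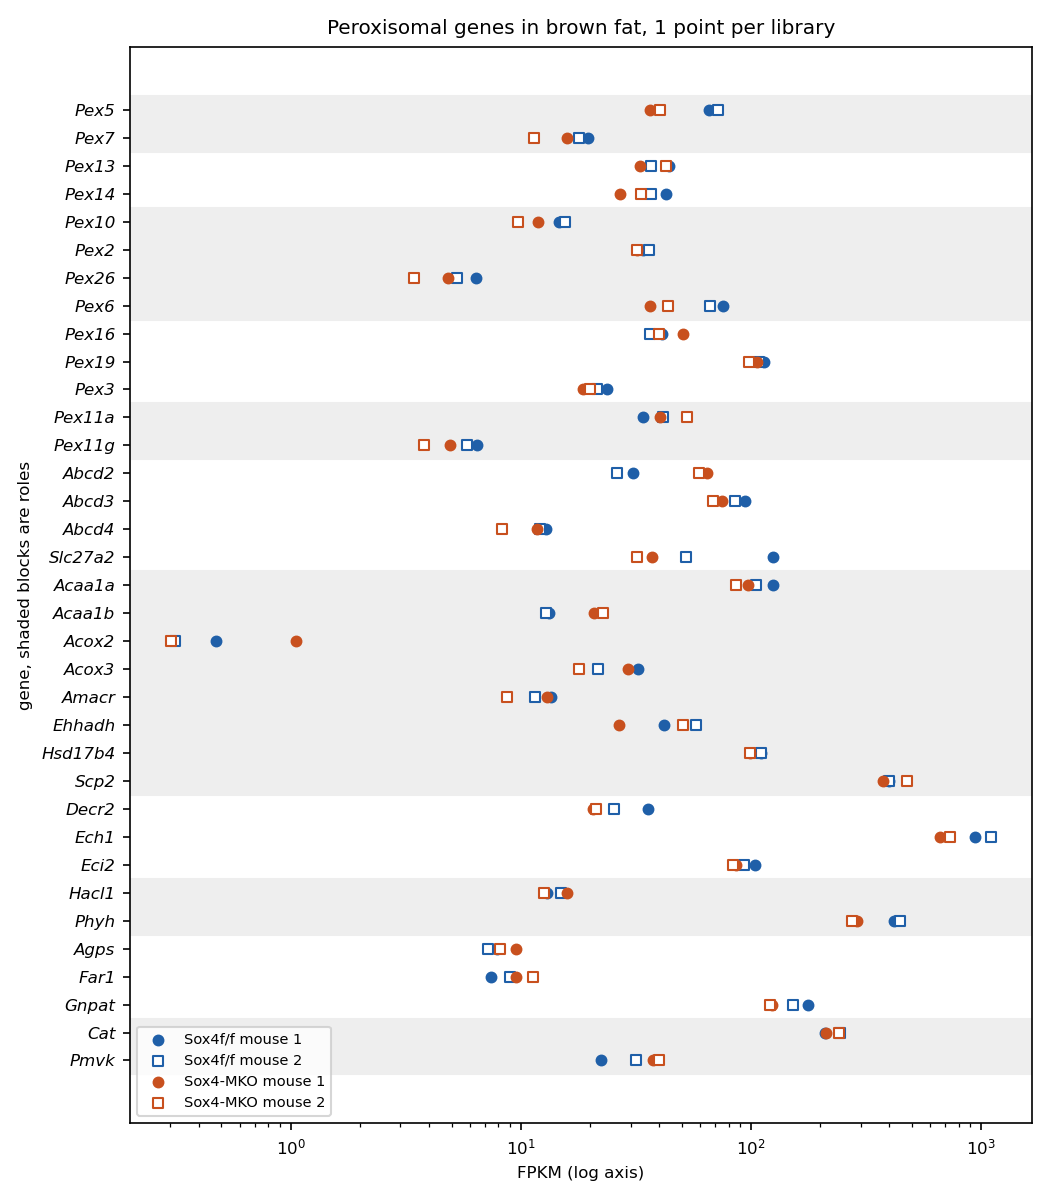
FPKM of the 35 peroxisomal genes on a log axis, 1 point for each of the 4 libraries, with blue for Sox4f/f, orange for Sox4-MKO, filled circles for mouse 1 and open squares for mouse 2, and shaded blocks for roles. The colours separate clearly at Pex5, Pex6, Phyh, Abcd2 and Acaa1b, Slc27a2 has 1 high Sox4f/f library at 125 FPKM, and Acox2 lies at or under 1.05 FPKM.

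Among the cargo receptors, Pex5, which binds the PTS1 signal at the end of most matrix enzymes, had 65.5 and 71.6 FPKM in Sox4f/f and 36.5 and 40.4 FPKM under the Sox4-MKO label. The means were 68.5 ± 4.35 and 38.4 ± 2.72 FPKM (SD, n = 2 each), so the level under that label was 56.1% of Sox4f/f. The log2 change was -0.82 (standard error 0.13, unadjusted p = 0.0017, adjusted p = 0.196 by limma), and it lay between -0.89 and -0.75 with any one library left out. Pex7, the receptor for the less common PTS2 signal carried by AGPS, PHYH and the thiolases, had 19.6 and 17.9 FPKM against 15.9 and 11.4 FPKM. The groups did not overlap, but the log2 change of -0.44 (standard error 0.19, adjusted p = 0.350) was not called. Without Sox4-MKO mouse 1 it was -0.66 and called. The level of Pex5 exceeded that of Pex7 by 3.35 and 4.01 times in Sox4f/f and by 2.30 and 3.53 times in the other libraries.

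The docking proteins Pex14 and Pex13 form the entry site for loaded receptors. Pex14 had 42.9 and 36.6 FPKM against 27.0 and 33.2 FPKM, without overlap, and its log2 change of -0.39 (standard error 0.16) was not called with all libraries and was -0.54 and called without Sox4-MKO mouse 2. Pex13 overlapped, with 43.9 and 36.8 FPKM against 33.1 and 42.7 FPKM and a log2 change of -0.09 (standard error 0.18), which was above 0 without mouse 1 of either genotype and at 0.12 on the common sum scale.

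Receptors are marked with ubiquitin by a ring complex that includes PEX2 and PEX10 and then extracted by PEX6 and its partner, anchored at the membrane by PEX26. These 4 genes lay lower without overlap, as 29.6% of all tested genes did, and 2 were called, against 8.28% of all. Pex6 had 75.7 and 66.4 FPKM in Sox4f/f and 36.5 and 43.4 FPKM under the Sox4-MKO label, which is 56.3% of the Sox4f/f mean. The log2 change was -0.82 (standard error 0.15, unadjusted p = 0.0034, adjusted p = 0.196 by limma), from -0.94 to -0.69 with any one library left out. Pex6 thus stood with Pex5 as the peroxins with the largest differences of the 13, one carrying receptor function and the other receptor release. Pex10 had 14.7 and 15.5 FPKM against 11.9 and 9.71 FPKM (log2 change -0.45, standard error 0.16, adjusted p = 0.277), and the call was lost without either Sox4f/f mouse (-0.49 without mouse 1 and -0.42 without mouse 2) and without Sox4-MKO mouse 2 (-0.32). Pex26 had 6.42 and 5.28 FPKM against 4.83 and 3.44 FPKM, a log2 change of -0.42 (standard error 0.22) that was not called. Pex2 had 34.1 and 36.3 FPKM against 32.0 and 31.9 FPKM, a log2 change of -0.13 (standard error 0.12) that turned to 0.08 on the common sum scale.

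The genes that place proteins in the peroxisomal membrane were not called. Pex19, which carries membrane proteins through the cytosol, had 114 and 109 FPKM against 106 and 98.6 FPKM. Pex3, its docking site, had 23.7 and 21.4 FPKM against 18.6 and 19.9 FPKM. Pex16, needed for PEX3 to reach the membrane, had 41.1 and 36.6 FPKM against 50.9 and 39.7 FPKM. The groups overlapped at Pex16 only. Their log2 changes were -0.12, -0.22 and 0.21 (standard errors 0.11, 0.13 and 0.17), and on the common sum scale Pex19 turned to 0.09 and Pex16 was called higher.

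The PEX11 proteins elongate peroxisomes before they divide, and Pex11a is the form that responds to PPARα ligands. Pex11a overlapped between the genotypes, with 34.0 and 41.3 FPKM against 40.4 and 52.8 FPKM (log2 change 0.29, standard error 0.19). Pex11g did not overlap, with 6.42 and 5.87 FPKM against 4.94 and 3.82 FPKM (log2 change -0.42, standard error 0.19), and was not called either. Within a library, Pex11a exceeded Pex11g by 5.29 and 7.05 times in Sox4f/f and by 8.19 and 13.8 times under the Sox4-MKO label. Over the 13 peroxins, 3 (23.1%) were called lower and 0 higher, against 8.28% and 7.95% of all tested genes. Of their log2 changes 11 (84.6%) lay below 0, against 56.0% of all, and the median was -0.39, against -0.05. Pex13, Pex19 and Pex2 were among the 11 and turned above 0 on the common sum scale.

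**Figure D2:**
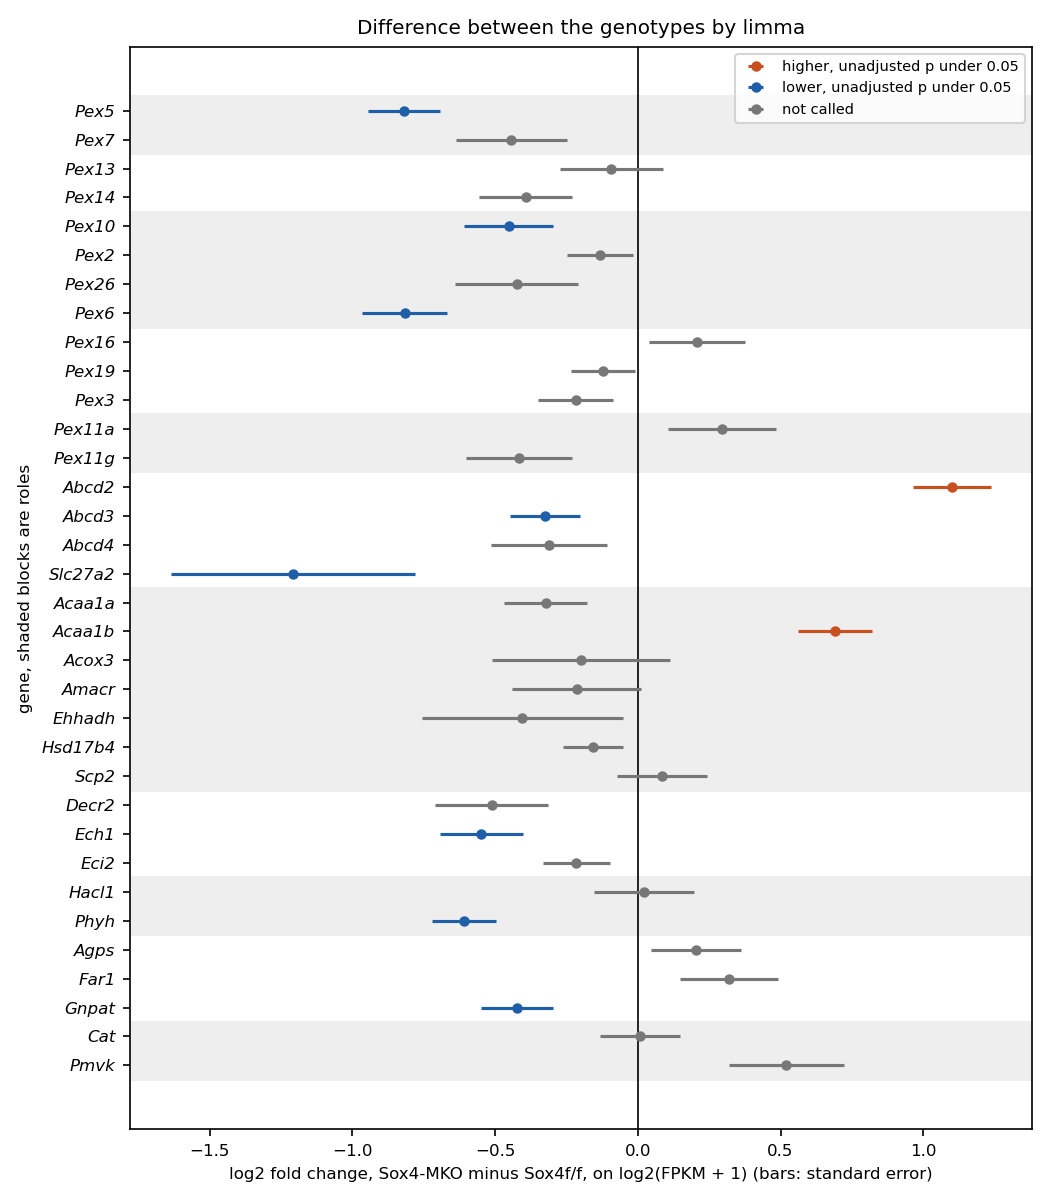
Log2 change of the 34 tested genes, Sox4-MKO minus Sox4f/f, on the log2(FPKM + 1) scale, as points with standard error bars, blue where called lower, orange where called higher (unadjusted p under 0.05, limma) and grey where not called. Pex5 and Pex6 lie at -0.82, Phyh at -0.61, Acaa1b at 0.69 and Abcd2 at 1.10, and Slc27a2 at -1.21 has the widest bar among the called genes (standard error 0.43). Among the grey points near 0, Pex13, Pex19, Pex2, Hsd17b4 and Acox3 turn above 0 on the common sum scale.

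The transport and activation genes showed the widest differences, and in opposite directions. Abcd2 encodes ALDRP, which takes very-long-chain and polyunsaturated acyl-CoA into the peroxisome and is abundant in adipose tissue. It had 30.7 and 26.2 FPKM in Sox4f/f and 64.3 and 59.7 FPKM under the Sox4-MKO label. The means were 28.4 ± 3.14 and 62.0 ± 3.26 FPKM (SD, n = 2 each), 2.18 times higher under that label, and both libraries of one genotype lay far from both of the other. The log2 change was 1.10 (standard error 0.14, unadjusted p = 0.00067, adjusted p = 0.191 by limma), between 0.99 and 1.21 with any one library left out. Abcd3, which encodes PMP70, the abundant half-transporter for long-chain and branched acyl-CoA, had 94.6 and 85.6 FPKM against 74.8 and 68.6 FPKM. It was called lower (log2 change -0.32, standard error 0.12, unadjusted p = 0.0489, adjusted p = 0.304 by limma), but in none of the 4 fits with a library left out (-0.25 and -0.40 without Sox4f/f mice 1 and 2, -0.39 and -0.26 without Sox4-MKO mice 1 and 2). The level of Abcd2 relative to Abcd3 was 0.324 and 0.306 in Sox4f/f and 0.861 and 0.871 under the Sox4-MKO label, a ratio that no scaling of a library can change. Abcd4, grouped here by family although its product is known to move vitamin B12 out of lysosomes, had 12.9 and 12.1 FPKM against 11.8 and 8.25 FPKM (log2 change -0.31, standard error 0.20, not called, and -0.54 and called without Sox4-MKO mouse 1).

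Slc27a2 encodes FATP2, an acyl-CoA synthetase for very-long-chain fatty acids. It had 125 and 52.4 FPKM in Sox4f/f and 37.1 and 32.0 FPKM under the Sox4-MKO label. The lowest Sox4f/f value lay above both others, but the Sox4f/f mice differed more from each other than mouse 2 did from either Sox4-MKO mouse. The log2 change of -1.21 (standard error 0.43, unadjusted p = 0.0400, adjusted p = 0.286 by limma) was -0.59 without Sox4f/f mouse 1 and -1.83 without Sox4f/f mouse 2. The call was lost without either Sox4-MKO mouse (-1.31 without mouse 1 and -1.11 without mouse 2).

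**Figure D3:**
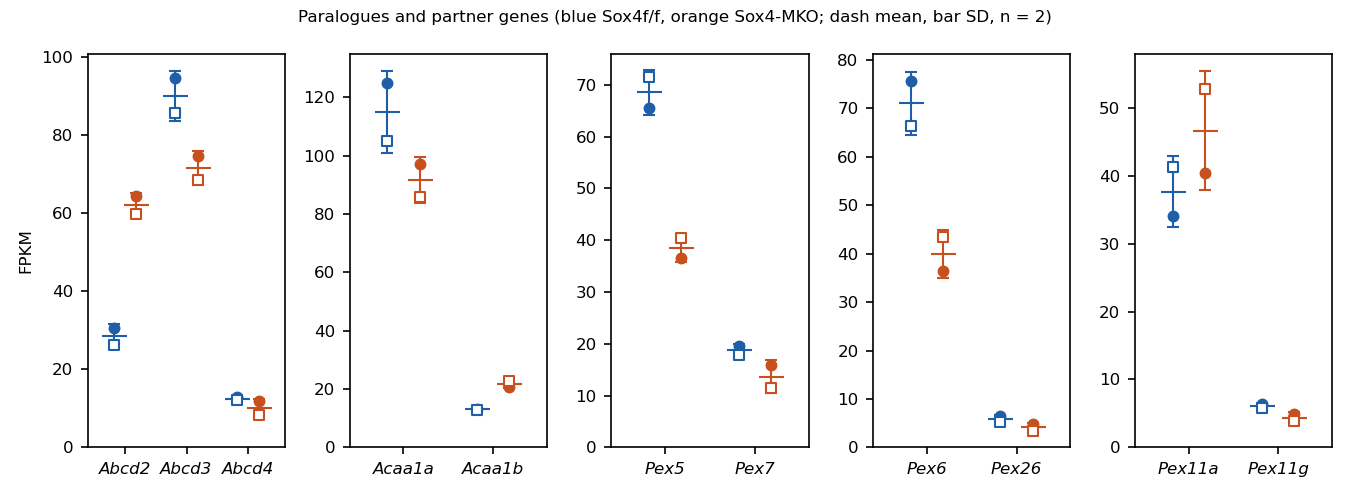
FPKM of paralogues and partner genes from 0 in each of the 4 libraries, in 5 panels with separate axes, blue for Sox4f/f and orange for Sox4-MKO, with filled circles for mouse 1, open squares for mouse 2, a dash at the mean and a bar for the SD (n = 2). Abcd2 (28.4 against 62.0 FPKM) and Acaa1b (13.1 against 21.7 FPKM) are higher in Sox4-MKO beside Abcd3 (90.1 against 71.7 FPKM) and Acaa1a (115 against 91.6 FPKM), whose means are lower, and Pex5 and Pex6 are lower without overlap.

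The core enzymes of peroxisomal beta-oxidation, the cycle that shortens acyl chains inside the organelle, were mostly not called. Its thiolase exists in the mouse as a pair of near-identical genes, Acaa1a and Acaa1b, and of the 7 core genes tested only Acaa1b was called, as higher. Acaa1b had 13.3 and 12.9 FPKM in Sox4f/f and 20.7 and 22.7 FPKM under the Sox4-MKO label, with means of 13.1 ± 0.31 and 21.7 ± 1.37 FPKM (SD, n = 2 each). This gave a log2 change of 0.69 (standard error 0.13, unadjusted p = 0.0039, adjusted p = 0.196 by limma), between 0.63 and 0.75 with any one library left out. Acaa1a had 125 and 105 FPKM against 97.2 and 86.0 FPKM, without overlap, and was not called (log2 change -0.32, standard error 0.14, adjusted p = 0.358). Acaa1b made up 9.61% and 10.9% of the pair's summed level in Sox4f/f and 17.6% and 20.9% under the Sox4-MKO label, while the sum was 138 and 118 FPKM against 118 and 109 FPKM.

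The levels of the thiolases depend on how shared fragments were divided between them, so each is uncertain. Their transcripts (1762 and 1689 nt in GENCODE M21) were identical at 1408 of 1471 aligned bases (95.7%), with one run of 327 identical bases. Among aligned coding stretches of 100 bases within 1 exon of each gene, that with the most differences lies in exon 1 of both. It is printed to show how few bases there tell the transcripts apart. Bases outside the alignment were not counted. The 7 capitals in each line mark the differing bases, 5′ to 3′ on the strand of the gene, read from GRCm38. That of Acaa1a is chr9:119341578-119341677 on the plus strand and that of Acaa1b is chr9:119156832-119156931 on the minus strand.
Acaa1a: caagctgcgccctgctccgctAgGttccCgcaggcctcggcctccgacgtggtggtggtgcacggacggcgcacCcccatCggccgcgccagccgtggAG
Acaa1b: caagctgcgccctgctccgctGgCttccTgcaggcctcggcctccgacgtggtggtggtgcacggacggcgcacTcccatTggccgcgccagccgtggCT
Abcd2 and Abcd3 were far less alike, with 363 identical bases in the 567 that aligned (64.0%).

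The other core enzymes overlapped or differed little. Ehhadh, the L-bifunctional enzyme that makes dicarboxylic acids and a classical PPARα target, had 41.8 and 57.6 FPKM against 26.7 and 50.8 FPKM. The log2 change was -0.40 (standard error 0.35, limma adjusted p = 0.591), but 0.05 without Sox4-MKO mouse 1 and -0.86 and called without Sox4-MKO mouse 2. Hsd17b4, the D-bifunctional enzyme used for branched and very-long-chain substrates, had nearly the same level in both mice of a genotype, with 111 and 110.3 FPKM against 99.5 and 99.0 FPKM. It did not overlap, was not called (log2 change -0.16, standard error 0.10) and turned to 0.06 on the common sum scale. Scp2, whose product carries sterols and cleaves branched 3-ketoacyl-CoA, had 400.2 and 398 FPKM against 375 and 479 FPKM. Amacr, the racemase that prepares branched acyl-CoA, had 13.6 and 11.5 FPKM against 13.0 and 8.73 FPKM. The branched-chain oxidase Acox3 had 32.3 and 21.7 FPKM against 29.4 and 17.9 FPKM. In each of these 3 genes the groups overlapped, with log2 changes of 0.08, -0.21 and -0.20 whose sign turned with the loss of a library (Scp2 from -0.09 to 0.26, Amacr from -0.47 to 0.05, Acox3 from -0.54 to 0.14). The other branched-chain oxidase gene, Acox2, best known from liver, had 0.47 and 0.32 FPKM against 1.05 and 0.30 FPKM, from an estimated 19, 11, 39 and 14 fragments, and was not tested. Over the beta-oxidation core, 0 of the 7 tested genes were called lower and 1 higher by limma, where 8.28% and 7.95% of all tested genes were.

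Enzymes that handle the double bonds of unsaturated fatty acids were 3 in number and lay lower without overlap, as 29.6% of all tested genes did. Ech1, an isomerase found in both peroxisomes and mitochondria, was the most abundant gene of the list, with 937 and 1105 FPKM in Sox4f/f and 661 and 733 FPKM under the Sox4-MKO label. That is a log2 change of -0.55 (standard error 0.14, unadjusted p = 0.0148, adjusted p = 0.229 by limma), and the call was lost without Sox4f/f mouse 1 (-0.67), Sox4f/f mouse 2 (-0.43) or Sox4-MKO mouse 1 (-0.47). Decr2, the peroxisomal dienoyl-CoA reductase, had 35.8 and 25.4 FPKM against 20.5 and 21.2 FPKM, just short of a call (log2 change -0.51, standard error 0.20, unadjusted p = 0.0524 by limma), and was called without Sox4f/f mouse 2 (-0.75). Eci2, an enoyl-CoA isomerase also present in both organelles, had 104 and 93.6 FPKM against 85.7 and 84.0 FPKM and was not called (log2 change -0.21, standard error 0.12).

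Alpha-oxidation removes 1 carbon from fatty acids such as phytanic acid, whose methyl branch blocks beta-oxidation. Phyh, which encodes phytanoyl-CoA hydroxylase, the first enzyme of the route, had 417 and 443 FPKM in Sox4f/f and 289 and 275 FPKM under the Sox4-MKO label. The means were 430.1 ± 18.9 and 282 ± 9.74 FPKM (SD, n = 2 each), a level of 65.5% under that label. A log2 change of -0.61 (standard error 0.11, unadjusted p = 0.0037, adjusted p = 0.196 by limma) followed, and it stayed between -0.65 and -0.56 with any one library left out. Hacl1, the lyase that acts next, overlapped, with 12.9 and 15.0 FPKM against 15.9 and 12.6 FPKM, and its log2 change of 0.02 (standard error 0.18) ranged from -0.14 to 0.18 with a library left out. 

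Ether lipid synthesis begins in the peroxisome with GNPAT, which acylates dihydroxyacetone phosphate, and AGPS, which exchanges the acyl group for an alcohol supplied by FAR1. Gnpat had 177 and 152 FPKM in Sox4f/f and 124 and 121 FPKM under the Sox4-MKO label (log2 change -0.42, standard error 0.13, unadjusted p = 0.0232, adjusted p = 0.247 by limma). Its call was lost without Sox4f/f mouse 1 (-0.32), Sox4-MKO mouse 1 (-0.44) or Sox4-MKO mouse 2 (-0.40). Far1 and Agps lay on the other side of 0, both without overlap. Far1 had 7.42 and 8.95 FPKM against 9.57 and 11.3 FPKM, and Agps had 7.85 and 7.21 FPKM against 9.57 and 8.11 FPKM. Their log2 changes of 0.32 and 0.20 (standard errors 0.17 and 0.16) were not called, but both were called higher on the common sum scale, where Gnpat was not called.

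Of the remaining enzymes, catalase (Cat), which breaks down hydrogen peroxide, overlapped almost completely, with 209 and 243 FPKM against 212 and 242 FPKM (log2 change 0.01, standard error 0.14, from -0.10 to 0.11 with a library left out). Pmvk, a kinase of the mevalonate route that has been assigned to peroxisomes, had 22.2 and 31.8 FPKM against 37.4 and 39.8 FPKM, without overlap. Its log2 change of 0.52 (standard error 0.20, unadjusted p = 0.0528 by limma) fell just short of a call, and was 0.77 and called without Sox4f/f mouse 2. Over the 21 tested enzymes and transporters, 5 (23.8%) were called lower and 2 (9.52%) higher, against 8.28% and 7.95% of all tested genes. The higher calls thus lay near the share over all genes. Their median log2 change was -0.21, against -0.05 over all tested genes.

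**Figure D4:**
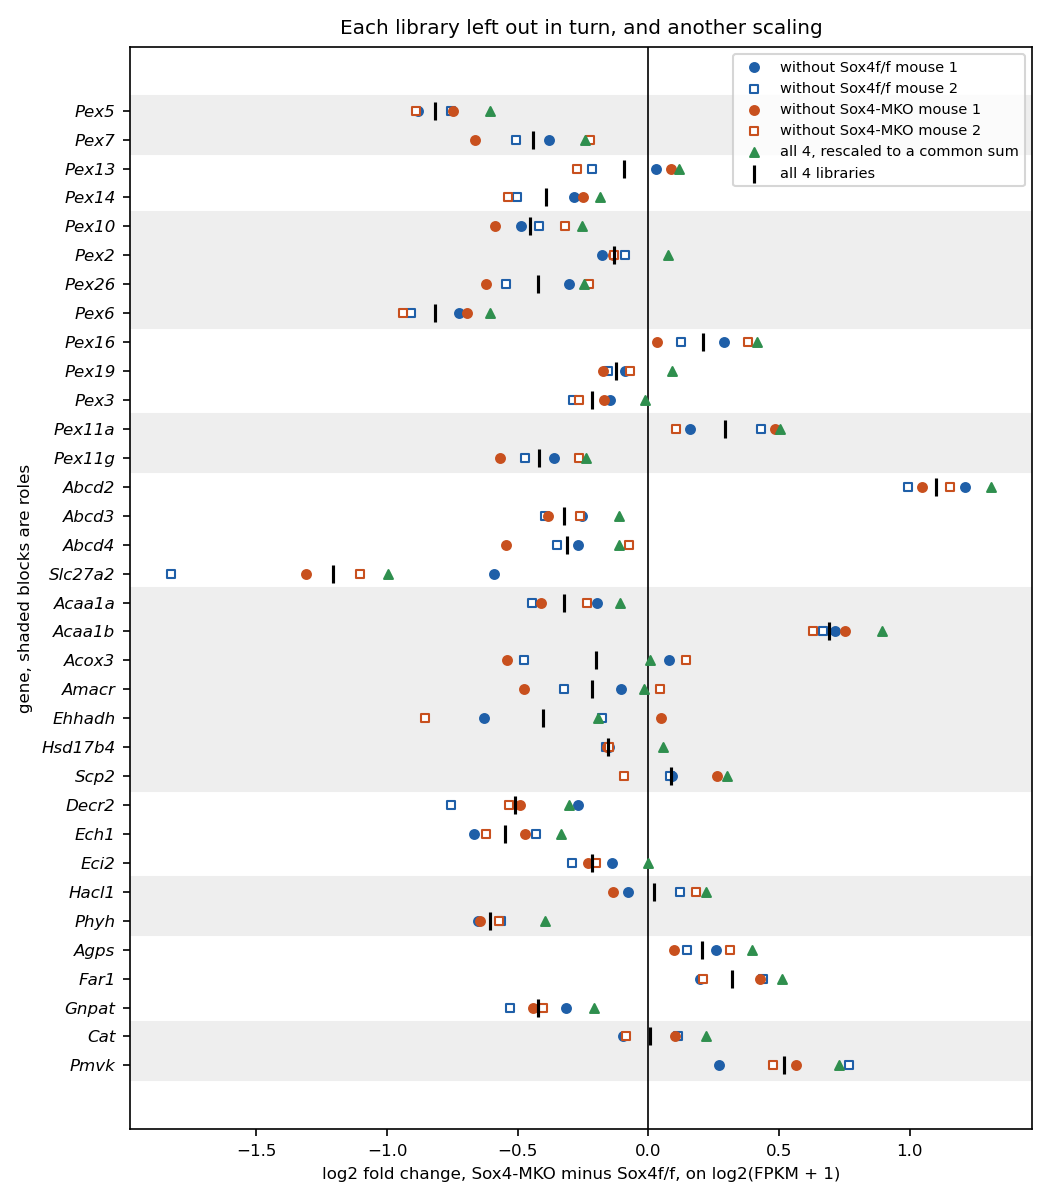
Log2 change of the 34 tested genes, Sox4-MKO minus Sox4f/f, on the log2(FPKM + 1) scale, with all 4 libraries (black ticks), with each library left out (blue without a Sox4f/f mouse, orange without a Sox4-MKO mouse, circles mouse 1, squares mouse 2) and with all 4 rescaled to a common sum (green triangles). The points of Pex5, Pex6, Phyh, Acaa1b and Abcd2 stay close together on one side of 0, those of Slc27a2 spread from -1.83 to -0.59, and the triangles lie to the right of the ticks.

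Removing a single library leaves 1 mouse in a group, and the counts changed with the library removed. A call lost in such a fit need not mean a smaller change, as at Ech1 (-0.67 without Sox4f/f mouse 1, -0.55 with all libraries). Without Sox4f/f mouse 1, 4 of the 34 genes were called lower (Pex5, Pex6, Phyh and Slc27a2) and 2 higher, where the calls over all tested genes also dropped, to 2.95% lower and 3.36% higher. Without Sox4-MKO mouse 1, the library with the most muscle RNA, 6 were called lower (Pex5, Pex6, Pex7, Phyh, Pex10 and Abcd4) and 2 higher (Abcd2 and Acaa1b), with a median of -0.24, where 7.88% and 7.21% of all tested genes were called. The Sox4-MKO library left in that fit still held 2498 FPKM of summed muscle markers, above both Sox4f/f libraries.

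A further list of peroxisomal genes held 51 rows, of which 41 were tested, with 5 called lower and 2 higher and a median log2 change of -0.13. These counts lay near the shares over all tested genes (8.28% lower and 7.95% higher). On the common sum scale 1 was called lower and 6 higher, again near the shares of 2.56% and 14.6% over all genes. The 3 lowest unadjusted p-values among the genes below 0 belonged to Tysnd1, Pecr and Prdx5. Tysnd1, the protease that trims imported matrix enzymes, had 93.3 and 84.4 FPKM against 40.0 and 55.2 FPKM (log2 change -0.90, standard error 0.19, adjusted p = 0.210 by limma), and -0.83 and not called without Sox4f/f mouse 1. Pecr, the trans-2-enoyl-CoA reductase, had 19.8 and 18 FPKM against 13.9 and 12.3 FPKM (log2 change -0.50), and stayed called only without Sox4-MKO mouse 1 (-0.58), being -0.43 and -0.57 without Sox4f/f mice 1 and 2 and -0.41 without Sox4-MKO mouse 2. The peroxiredoxin Prdx5 had 241 and 243 FPKM against 186 and 143 FPKM (log2 change -0.56), and lost its call without either Sox4f/f mouse (-0.57 without mouse 1 and -0.56 without mouse 2). In the other direction, the acyl-CoA binding protein gene Acbd4 had 47.3 and 58.8 FPKM against 73.5 and 85.3 FPKM (log2 change 0.58), and was not called without Sox4f/f mouse 1 (0.42) or Sox4-MKO mouse 2 (0.47). Idh1, which makes NADPH in the cytosol and in peroxisomes, had 82.2 and 102 FPKM against 119 and 119 FPKM (log2 change 0.38), and was called only without Sox4f/f mouse 2 (0.53) among the fits that leave out a library. Pxmp4, a membrane protein and the next in order, had 27.2 and 22.3 FPKM against 32.9 and 30.1 FPKM (log2 change 0.34) and was not called.

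Of 9 regulators of peroxisomal or brown adipocyte genes, 4 (44.4%) were called lower and 1 (11.1%) higher, against 8.28% and 7.95% of all tested genes. Ppargc1b, a coactivator related to PGC1α, had 36 and 36.3 FPKM in Sox4f/f and 14.7 and 17.6 FPKM under the Sox4-MKO label (log2 change -1.12, standard error 0.14, adjusted p = 0.191 by limma). Ppara had 115 and 130.2 FPKM against 57.7 and 66.4 FPKM (log2 change -0.97), and Ebf2, a factor of brown adipocyte identity, had 24.4 and 25.6 FPKM against 17.1 and 17.8 FPKM (log2 change -0.50). Ppargc1a, which encodes PGC1α, had 48.2 and 22.4 FPKM against 13.2 and 14.2 FPKM (log2 change -1.21), a value that was -0.67 without Sox4f/f mouse 1 and -1.74 without mouse 2. The calls of Ppargc1b and Ppara held without any one library, that of Ebf2 was lost without Sox4f/f mouse 1 (-0.53) or 2 (-0.46) and on the common sum scale (-0.29), and that of Ppargc1a without Sox4-MKO mouse 1 (-1.16) or 2 (-1.26). Rxra, the partner of PPARα on DNA, went the other way, with 18.9 and 20.4 FPKM against 28.3 and 27.5 FPKM (log2 change 0.49, standard error 0.12, adjusted p = 0.223 by limma), and was 0.43 and not called without Sox4f/f mouse 1. Pparg, Ppard, Prdm16 and Med1 were not called, with log2 changes of -0.32, -0.21, -0.24 and -0.35.

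The promoters of 29 of the 35 genes, each 250 bases before to 50 after the start site in RefSeq (GRCm38.p6), were searched on both strands. The DR1 element bound by PPAR and RXR, searched as 2 copies of AGGNCA separated by 1 base, was in 0 of the 29, against 0.451% of the promoters of 27025 genes. The EBF element, searched as TCCC and GGGA separated by 2 bases, was in 0 of the 29, against 1.06%. The letters ACAAAG, one form of the core bound by SOX proteins, were in 4 of the 29 (13.8%), against 21.0% of all promoters. They were thus no more common here than elsewhere. The SOX4 site that the paper mutated at Ebf2, AACAAGT, does not contain these letters. The site that it names at Ucp1 and Prdm16, AACAAAG, does contain them. Other forms were not searched. Those 4 genes were Phyh, Pex26, Pex11g and Eci2, of which only Phyh was called. Its window is shown because Phyh is one of the genes called in every fit, with the match in capitals, starting 125 bases before the start site, at chr2:4918841-4918906 on the plus strand.
Phyh: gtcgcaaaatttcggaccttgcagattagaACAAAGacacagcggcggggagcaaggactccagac
A match of these letters describes the window and not a site, and the absence of the others says only that they are not in these windows.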

How the data were processed

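BAT of 4 mice was sequenced as 1 library a mouse. The authors deposited FPKM for each gene and library, without counts, so no count model was used. The submitters' processing notes name Cufflinks 2.1.1, Cuffdiff and mm10 without roles, and the aligner is not given in the sources used here. The labels describe a column kit and a stranded mRNA library, the methods TRIzol and TruSeq. Samples were grouped by the genotype in the labels, and p-values measure only the spread between these samples.

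Genes passing the study's filter (mean FPKM over 1 in either genotype) were tested with limma 3.58.1 in R 4.3.3 on log2(FPKM + 1), with a term for genotype alone, a trended prior and two-sided p-values. This pseudocount understates the change of low genes. A gene was called at an unadjusted p under 0.05, the study's limit, and Benjamini-Hochberg adjustment ran over all 12877 tested genes. The code was tested on simulated data. Every listed gene is named, with Sox4, the regulators and the 3 further peroxisomal genes of smallest p in each direction. The genes, lists and tests were chosen with earlier results of these data known. Depth was estimated from the lowest FPKM of genes with 1 transcript, and limits low genes such as Acox2.

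The alternatives were 3 rescalings (a common median, quantiles, and a total without mitochondrially encoded genes and Ucp1), FPKM limits of 0.1, 5 and none, pseudocounts of 0.1 and 0.01, no moderation, a replicate block, each library left out, a loess correction for GC content and length, the loss of genes listed at 0, a fold change of at least 1.5, and, added later, a common sum. Transcript sequences are from GENCODE M21 (GRCm38) and promoters from RefSeq. Drawings were made with matplotlib 3.10.9. The ChIP sequencing was not analysed here.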

Additional observations from a re-analysis of the deposited data

How the results depend on the processing

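Of the 34 tested genes, 24 kept their direction in all 17 alternatives and 8 of these also their side of the threshold, namely Pex5, Pex6, Phyh, Abcd2, Acaa1b and the uncalled Eci2, Pex11a and Pex3. No gene of the list passed adjustment in any of them.

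Genes of the list called lower numbered 4 without moderation, 4 at a fold change of at least 1.5 and 3 on the common sum scale, against 8, and 6 were called higher on the common sum scale, against 2. Their median was -0.15 when rescaled without mitochondrial genes and Ucp1 and -0.0148 on the common sum scale. Further peroxisomal genes called lower, 5 with all libraries, numbered 3 when rescaled without mitochondrial genes and Ucp1, 3 without moderation, 1 at the fold limit and 1 on the common sum scale. Those called higher, 2 with all libraries, numbered 1 each with a common median, an FPKM limit of 5, the GC content and length correction and the replicate block, 0 without moderation, 0 at the fold limit and 6 on the common sum scale. Over all tested genes, 553 were called higher without moderation (1024 with it), 399 lower at the fold limit (1066 without it), and 330 lower and 1877 higher on the common sum scale. The changes at the fold limit and on the common sum scale follow from the construction, since a fold limit can only remove calls and a common sum shifts every gene upward in the libraries labelled Sox4-MKO. For the others the cause was not tested.

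With each library left out, which leaves 1 mouse in a group and assumes that it varies like the other group, 4 to 6 genes of the list were called lower and 2 to 3 higher, with medians from -0.31 to -0.16. Further peroxisomal genes called lower ranged from 0 to 4 and higher from 0 to 2, and all genes called lower from 380 to 1015 and higher from 433 to 1443, the lowest of each without Sox4f/f mouse 1. Directions turned over the same fits for Hacl1 (-0.14 to 0.18), Acox3 (-0.54 to 0.14), Amacr (-0.47 to 0.0452), Ehhadh (-0.86 to 0.0479), Scp2 (-0.0917 to 0.26), Pex13 (-0.27 to 0.0853) and Cat (-0.10 to 0.11). On the common sum scale Acox3 (0.0073), Hsd17b4 (0.0567), Pex13 (0.12), Pex19 (0.0902) and Pex2 (0.0753) turned above 0, with a common median Cat (-0.0148) turned below 0, and with GC content and length corrected Hacl1 (-0.0041) and Cat (-0.0352) did.

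Mouse numbers 1 and 2 occur in both genotypes, and deviations from the group means of same-numbered mice had a correlation of -0.01 over 12877 genes. With 2 mice a genotype, the deviations of one mouse mirror those of the other. The correlation therefore cannot show whether same-numbered mice share more than a number. With the replicate block, 6 genes of the list were called lower and 3 higher, Pmvk among the latter, and Pex10 and Abcd3 were no longer called.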
